A study of Mus musculus with 8 samples.

Results

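The cytosolic ribosomal protein genes, which encode the protein part of the ribosome outside mitochondria, are described here in luminal epithelial cells sorted from mouse mammary glands. Members were taken by gene symbol alone: Rpl or Rps followed by a number with at most the letters a, x, y or l after it, and Rpsa, Rplp0, Rplp1 and Rplp2, with kinases and pseudogene symbols left out. Of 19505 genes with a named probe set, 61 matched, 23 of the small subunit and 38 of the large. The mouse RefSeq gene table holds 84 symbols of this form, and the other 23, among them Rplp2, Rps3 and Rps27a, were not analysed here. Each member had 1 probe set. Luminal cells are the inner epithelial layer, which makes milk. The 8 arrays hold 4 samples labelled a3a6KO and 4 labelled control, all sorted from fresh, enzymatically digested glands of mice on day 15 of pregnancy and amplified from 500 pg of total RNA. The series title names laminin-binding integrins, and a3a6KO was read as loss of the integrin chains alpha 3 and alpha 6, although the titles of these 4 samples also carry the word Ctrl. The sources used here do not name the Cre driver, the deleted exons, the strain or the age of the mice.

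Ribosomes are built in the nucleolus from ribosomal RNA and about equal molar amounts of each ribosomal protein, joined into a small subunit that reads the messenger RNA and a large subunit that forms peptide bonds. Ribosomal protein transcripts are among the most abundant in growing and secretory cells. Most of them belong to the TOP class: they begin with a C followed by a run of pyrimidines, the terminal oligopyrimidine tract, through which mTORC1 and the binding protein Larp1 control their translation, and through Larp1 also their stability.

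The tract is shown first because it is the sequence feature the family is known for and was not used to choose the members. RefSeq promoter sequences (GRCm38.p6, 250 bases before to 50 bases from the annotated start) matched 48 of the 61 members by symbol. A C at the annotated start followed by at least 4 bases that are each C or T was found in 12 of the 48, or 25%, against 3.01% of the 27025 genes of the promoter table and 2.70% of the 1294 other genes above background on every array. Here and below, a gene with several annotated starts was counted if any of them qualified, and the 48 members had 59 sequences. Rpl35a, for example, also has an annotated start without the tract. Below are the 12 windows, from 10 bases before the start to 20 bases from it, 5′ to 3′ along the gene, with the tract in capitals.
Rpl14 (chr9:120571507-120571536, plus strand): ggccctctctCTTCTCgctgagcgccgcca
Rpl15 (chr14:18270967-18270996, minus strand): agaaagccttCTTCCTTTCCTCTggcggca
Rpl28 (chr7:4792955-4792984, plus strand): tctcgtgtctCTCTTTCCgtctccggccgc
Rpl32l (chr10:20208429-20208458, plus strand): aaatgaccagCTTCTTCCTTggtgctgcct
Rpl35 (chr2:39005112-39005141, minus strand): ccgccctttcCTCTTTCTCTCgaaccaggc
Rpl35a (chr16:33056472-33056501, plus strand): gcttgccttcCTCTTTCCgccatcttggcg
Rpl38 (chr11:114668570-114668599, plus strand): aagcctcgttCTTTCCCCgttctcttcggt
Rps10 (chr17:27635225-27635254, minus strand): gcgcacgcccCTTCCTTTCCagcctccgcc
Rps15a (chr7:118116128-118116157, minus strand): tttctgccatCTTCCCTCgccggtgagtga
Rps18 (chr17:33955646-33955675, minus strand): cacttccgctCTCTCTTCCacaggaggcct
Rps21 (chr2:180257369-180257398, plus strand): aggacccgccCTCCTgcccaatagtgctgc
Rps6 (chr4:86857348-86857377, minus strand): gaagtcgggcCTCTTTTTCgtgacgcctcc
The annotated start does not fall on such a tract in every member. As a contrast, the windows of 3 members without it are given, those of Rpl5, Rplp0 and Rpsa, in which no base is in capitals.
Rpl5 (chr5:107900518-107900547, plus strand): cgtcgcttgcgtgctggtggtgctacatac
Rplp0 (chr5:115559457-115559486, plus strand): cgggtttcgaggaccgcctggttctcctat
Rpsa (chr9:120127756-120127785, plus strand): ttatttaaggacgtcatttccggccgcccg
With the tract allowed to begin up to 5 bases to either side of the start, 21 of 48 members had one (43.8%), against 21.2% of the promoter table and 22.3% of the other expressed genes. Searched on both strands of the whole 300 bases, CCGGAAG, the core of ETS factor sites, occurred in 20 of 48 members (41.7%), against 9.93% of the table and 20.8% of the other expressed genes. GGGCGG, the GC box, occurred in 56.2% of members, against 38.2% and 72.0%. AAGATGG, part of the YY1 motif, occurred in 14.6%, against 7.28% and 10.5%. TATAAA, the TATA box, occurred in 12.5%, against 15.7% and 10.3%. These are matches of letters and not sites of binding, and a start annotated a few bases off would hide a tract.

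The labels were checked first on markers and on the named integrins. The luminal genes Krt8, Krt18 and Epcam, picked from a longer list of luminal genes, exceeded background on all 8 arrays. The mean deviation of that list from its mean over all arrays was 0.043, 0.24, -0.22 and -0.072 in a3a6KO 1 to 4. In control 1 to 4 it was -0.093, 0.065, 0.11 and -0.069. Background here is the value that 95% of an array's intron control sets do not exceed, between 6.38 and 6.90 on the log2 scale, which 2244 to 3229 genes exceeded. Krt14, a keratin of the outer basal layer, exceeded it on all 8 arrays as well, and the basal marker score, the mean deviation of 19 basal genes from their mean over all arrays, was -0.67, -0.71, 0.74 and -0.55 in a3a6KO 1 to 4, against -0.15, 0.56, -0.40 and 1.18 in control 1 to 4. Of these 19 genes, 2 exceeded background on every array and 7 on none, and 8 of 9 leukocyte, 8 of 9 fibroblast, 6 of 7 adipocyte and 4 of 9 endothelial markers exceeded it on none. The endothelial and fibroblast scores were highest on a3a6KO 3 (0.97 and 0.63) and control 4 (1.37 and 0.49), and were below 0 on the other arrays. The leukocyte score was highest on control 3, at 0.55. The score of milk protein genes did not overlap between groups. It was -0.27, -0.29, -0.088 and -0.041 in a3a6KO 1 to 4, against 0.10, 0.12, 0.18 and 0.29 in control 1 to 4. Its part in the ribosomal protein values was not tested. Itga6 was at 5.95, 3.65, 8.21 and 7.85 in a3a6KO 1 to 4, against 8.83, 8.73, 9.14 and 8.80 in control 1 to 4, and Itga3 at 5.11, 4.34, 5.55 and 5.60, against 6.72, 6.30, 5.37 and 7.27. Neither passed limma over all genes (adjusted p = 0.944 for both). Itga3 exceeded background on control 4 alone, so its values say little about the label. Itga6 exceeded background on every control array and on a3a6KO 3 and 4. Loss of both chains was thus not shown on every a3a6KO array.

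Most ribosomal protein transcripts gave bright signals. Of the 61 members, 56 exceeded background on every array. The values of these 56 on single arrays ran between 8.66 and 12.81, and 52 of them had a mean of at least 10. In cells sorted in bulk, fewer cells of a type and less RNA per cell cannot be told apart, and the members are not ranked by level because probe sets differ in how they hybridise. Many ribosomal protein genes also have processed pseudogenes of nearly the same sequence, and the part of a set's signal that came from such copies was not tested.

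The 5 members not above background on every array all have symbols ending in l, the letter given to relatives of another ribosomal protein gene. Rpl3l, a paralogue of Rpl3 known from striated muscle, was at 2.01, 2.64, 2.93 and 3.54 in a3a6KO 1 to 4, against 3.38, 2.83, 2.52 and 3.48 in control 1 to 4. Rpl39l and Rpl10l, paralogues known from the testis, were at 3.50 to 4.00 and 4.63 to 5.26 in a3a6KO, against 3.19 to 3.99 and 4.95 to 5.44 in control. Rps4l, annotated by RefSeq as a transcribed pseudogene, was at 5.19 to 5.47 in a3a6KO and 4.99 to 5.82 in control. These 4 exceeded background on no array. Rpl32l exceeded it on 1 array, a3a6KO 4, at 6.58. The other 2 members ending in l were above background throughout. Rpl36al, whose protein is nearly that of Rpl36a, was at 10.63, 10.84, 10.70 and 10.69 in a3a6KO, against 10.68, 10.64, 10.69 and 10.67 in control. Rps27l, a paralogue of Rps27 described as a target of p53, was at 8.66, 8.99, 9.13 and 9.16 in a3a6KO, against 8.69, 8.83, 8.93 and 8.85 in control. The partners that were measured, Rpl3, Rpl32, Rpl36a, Rpl39 and Rps4x, exceeded background on all 8 arrays.

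**Figure D1:**
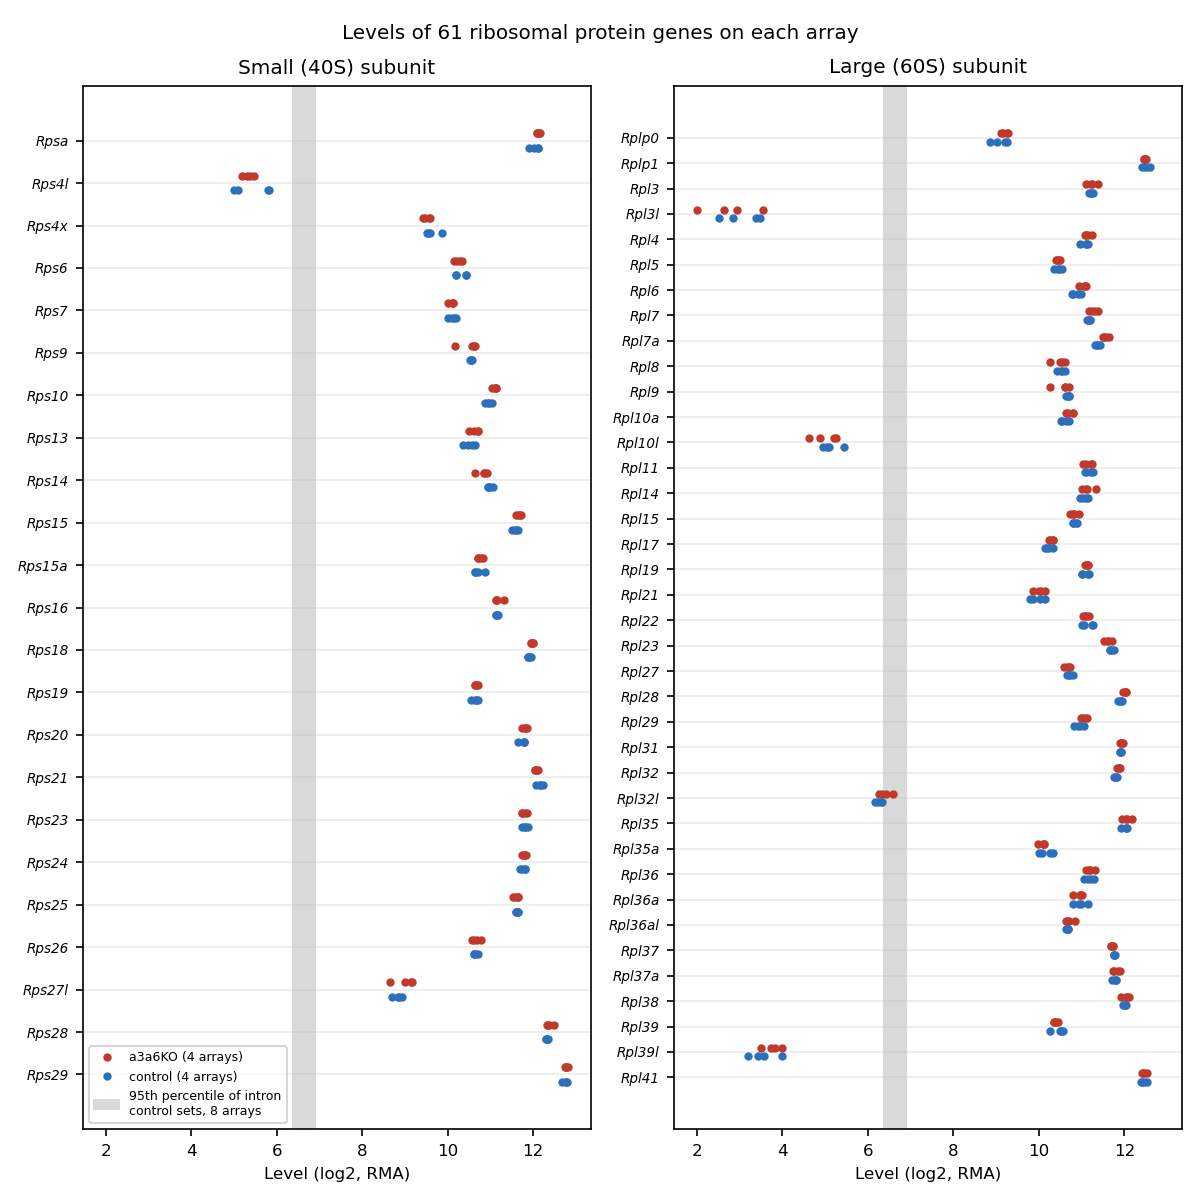
Level of each of the 61 ribosomal protein genes on each array (horizontal axis, log2 RMA value; one row per gene, small subunit in the left panel and large subunit in the right), with a3a6KO arrays in red above control arrays in blue and the range of the background limit over the 8 arrays (6.38 to 6.90) in grey. The points of 56 genes lie to the right of the grey band, and those of Rpl3l, Rpl39l, Rpl10l and Rps4l to the left of it.

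The levels of the family were uniform between arrays, in values that normalization had made alike by quantiles. For the 56 members above background on every array, the pooled within-group SD had a median of 0.071 and ran between 0.019 and 0.18. The median was 0.30 over the 1553 other genes above background on every array, 0.16 over the 128 other genes with a mean of at least 10, and 0.34 over all genes. The 3 members of smallest SD were Rpl37, Rpl31 and Rpl32, all of the large subunit. Rpl31, at the mouth of the exit tunnel for the new peptide, was at 11.92, 11.97, 11.91 and 11.94 in a3a6KO 1 to 4, against 11.92, 11.91, 11.92 and 11.90 in control 1 to 4. Its 8 values thus spanned 0.07, the smallest span in the family, while the median span of the 56 members was 0.24 and the widest 0.50. The 3 of largest SD were Rps27l, Rps9 and Rpl9. In Rps27l the spread lay mostly in a3a6KO, where array 1 was below the other 3. As the plot of spread against level shows, the SD of the other genes was largest at middle levels and smaller at the bright end, with a median of 0.26 at means of 2 to 3, 0.48 at 5 to 6 and 0.19 at 10 to 11. The members' median SD was smaller at the same levels, 0.087 at means of 10 to 11, against 0.19, and 0.060 at 11 to 12, against 0.10 in the 32 other genes there.

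**Figure D2:**
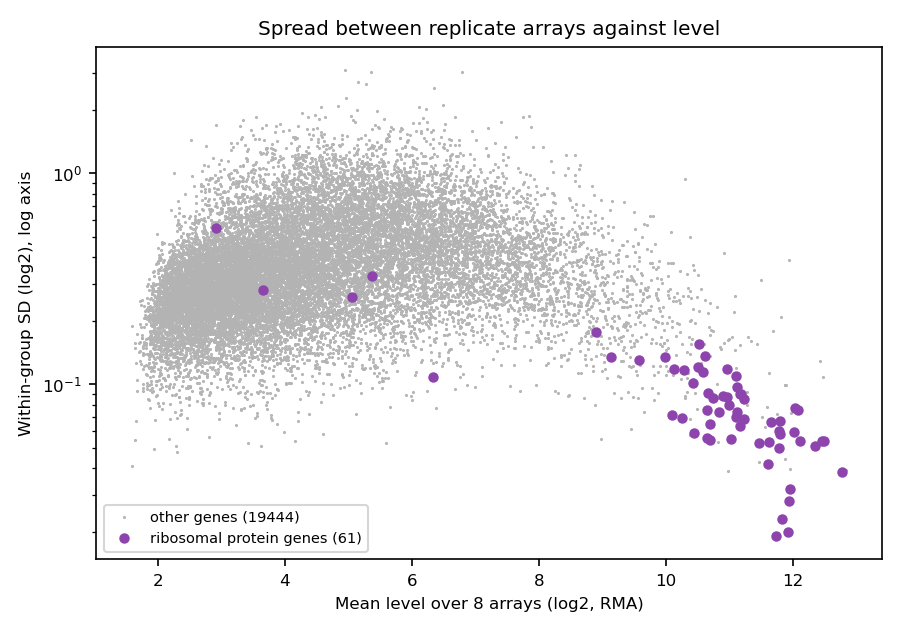
Within-group SD (vertical axis, log2, on a log scale) against mean level over 8 arrays (horizontal axis, log2 RMA value) for 61 ribosomal protein genes in purple and 19444 other genes in grey. Most members sit at the lower right, with an SD at or under 0.18 and a mean of at least 8.91, and 5 dim members sit among the other genes to the left.

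The comparison of a3a6KO with control asks whether luminal cells labelled as lacking both chains carry other amounts of these transcripts. No ribosomal protein gene passed limma at an adjusted p under 0.05 (0 of 61, against 0% of 19505 genes tested), and the smallest adjusted p of a member was 0.95. At an unadjusted p under 0.05 limma counted 0 of 61 members, against 5.13% of all genes (2.40% higher and 2.73% lower in a3a6KO). This count depends on the moderation of the variances described in the next paragraph. Without moderation 8 members had an unadjusted p under 0.05, against 5.06% of all genes. The differences were small: their median, a3a6KO minus control, was 0.025 on the log2 scale over the 61 members, with 38 above 0 and 23 below it, against a median of -0.0025 and 50.4% below 0 over all genes. The median was 0.01 without a3a6KO 4, with 29 of 61 below 0, and 0.044 without a3a6KO 3, with 20 below. With each array centred on its median it was 0.0525, with 17 below. Among the 56 members above background, the largest difference in size was 0.18, that of Rpl7a, or 1.13-fold. Small and large subunit genes lay alike in these values, with medians of 0.030 (14 above 0 and 9 below) and 0.025 (24 above 0 and 14 below). The difference between subunits was not tested.

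The precision allows an upper bound on differences in normalized array signal. Whether bright signals are compressed, so that transcript amounts differ by more, was not tested. The 95% intervals of all 56 members above background lay inside a 1.5-fold change in either direction, the outermost reaching -0.49 (Rps14) and 0.54 (Rps27l). This held for 28.3% of all genes and 70.3% of the other genes with a mean of at least 10. Inside a 1.25-fold change lay 3 of the 61 intervals. limma moderates each gene's SD towards a value common to all genes, here 0.32, which exceeded the own SD of 56 of the 56 members. Their standard errors were therefore at least 0.135 (median 0.14), while the members' own spread alone gives a median of 0.05, and without moderation 51 of the 56 intervals lay inside 1.25-fold.

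**Figure D3:**
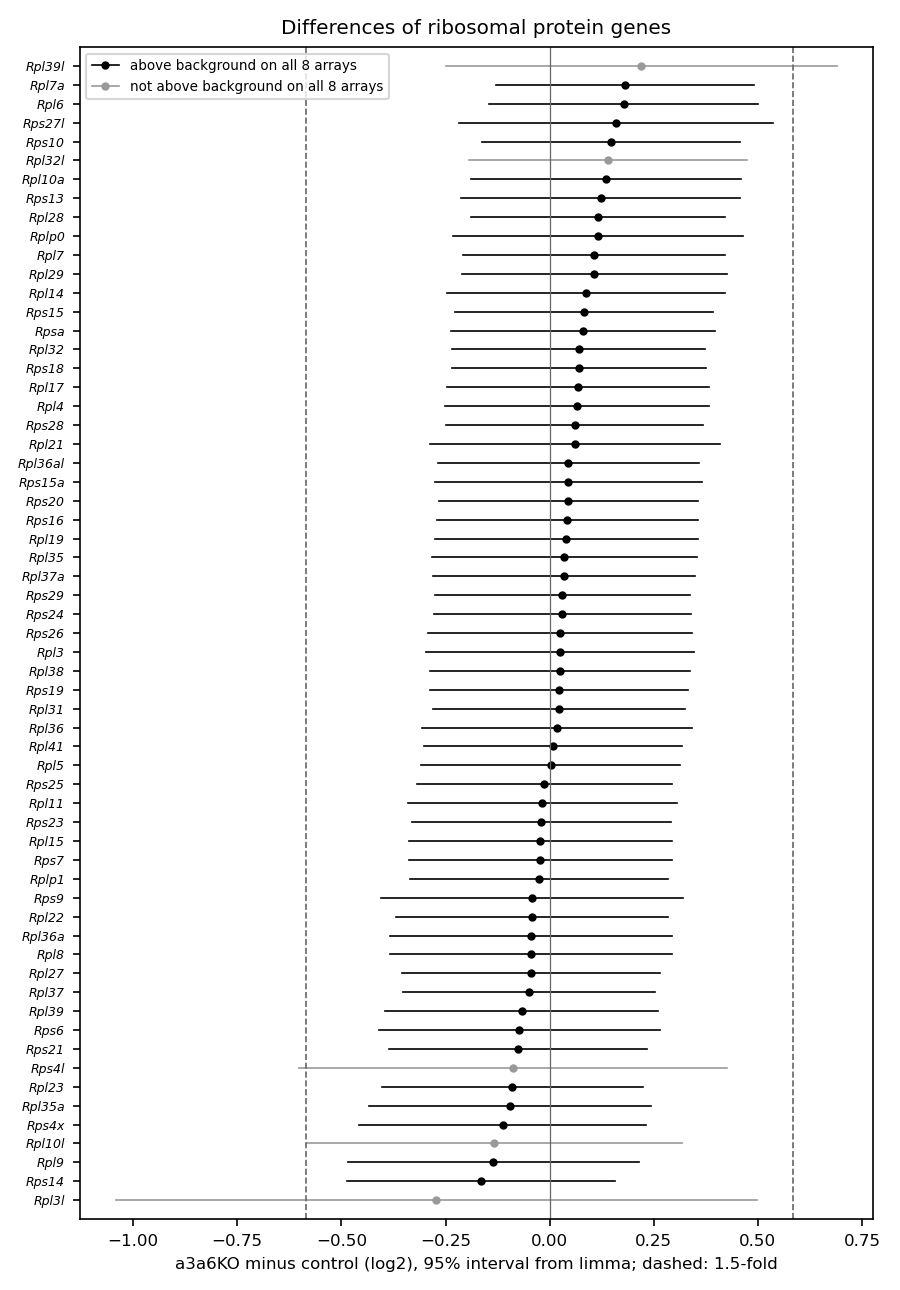
Difference a3a6KO minus control (horizontal axis, log2) of each of the 61 ribosomal protein genes with its 95% interval from limma, in order of size, in black for 56 genes above background on all 8 arrays and in grey for the other 5; dashed lines mark a 1.5-fold change. Every interval crosses 0, and every black interval lies between the dashed lines.

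In 7 members the 4 a3a6KO values did not overlap the 4 control values, 5 higher and 2 lower in a3a6KO. These are 11.5% of the 61, against 2.94% of all genes (1.38% higher and 1.56% lower) and 2.34% of the other genes with a mean of at least 10. The members share the same 8 arrays and are not independent of each other. With each array centred on its median, 6 members did not overlap, all higher (3.03% of all genes), and with cyclic loess 8 did not, 6 higher and 2 lower (3.08% of all genes). The 5 higher members were among them under both, while Rps14 and Rpl37 overlapped under both. Rpl28, Rpl32, Rpl37 and Rps18 are named because their groups did not overlap, chosen after their values were seen. Each of the 7 gave p = 0.0286 in an exact permutation test (two-sided, n = 4 each, 70 ways to assign the arrays), unadjusted and the smallest this design allows, and adjusted p-values between 0.95 and 0.98 in limma. Groups of 4 that do not overlap always give this exact p, so the exact test only restates the lack of overlap.

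Rpl7a, a large subunit protein gene, was at 11.51, 11.63, 11.52 and 11.58 in a3a6KO 1 to 4, against 11.37, 11.39, 11.44 and 11.32 in control 1 to 4. The lowest a3a6KO array was 11.51 and the highest control array 11.44, and the means differed by 0.18 (SE 0.137). Rpl28, also of the large subunit, was at 11.98, 12.04, 12.01 and 12.04 in a3a6KO, against 11.92, 11.86, 11.94 and 11.89 in control, a difference of 0.115. Rpl32 was at 11.87, 11.84, 11.89 and 11.87 in a3a6KO, against 11.77, 11.83, 11.80 and 11.79 in control. Its gap was 0.07 between the means, with an own SD of 0.023. Rps10, a small subunit protein gene whose start carries the tract shown above, was at 11.10, 11.13, 11.04 and 11.13 in a3a6KO, against 11.03, 10.87, 10.95 and 10.96 in control, a difference of 0.15 (SE 0.138). Rps18, with a tract as well, was at 11.95 or above on the a3a6KO arrays, against 11.91, 11.94, 11.89 and 11.87 in control, a difference of 0.07.

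The groups were also apart, in the other direction and only without further normalization, in Rps14 and Rpl37. Rps14, a protein of the small subunit platform known from the anaemia of human 5q deletion, was at 10.84, 10.65, 10.91 and 10.86 in a3a6KO 1 to 4, against 10.95, 11.05, 10.98 and 10.94 in control 1 to 4. Its difference was -0.165 (SE 0.143), and a3a6KO 2 was the lowest array. Rpl37 was at 11.73, 11.70, 11.69 and 11.74 in a3a6KO, against 11.77, 11.76, 11.78 and 11.75 in control, a gap of 0.05 between the means, or 1.03-fold. Rpl6, of the large subunit, had a difference of 0.18 as well, but a3a6KO 3 (10.95) lay below control 3 (10.99). Without moderation of the variances, 8 members had an unadjusted p under 0.05 (5.06% of all genes), these 7 and Rpl6, with the lowest adjusted p of a member at 0.866. With an intensity trend in limma 1 member did, Rpl7a (5.09% of all genes).

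**Figure D4:**
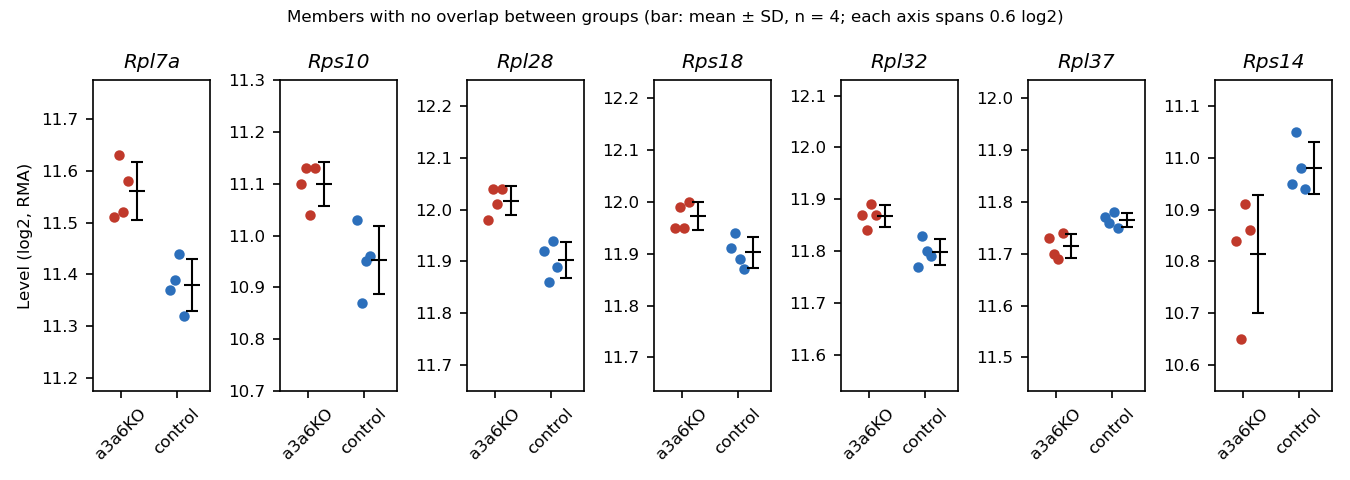
Level (vertical axis, log2 RMA value, each axis spanning 0.6) of the 7 ribosomal protein genes whose groups did not overlap, on 4 a3a6KO arrays in red and 4 control arrays in blue, with mean ± SD beside them. The gap between the group means is 0.18 or less in each gene, and a3a6KO is higher in the left 5 and lower in Rpl37 and Rps14.

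Members with known roles outside the bulk of the ribosome differed little. Rpsa, a small subunit protein that has also been described as a laminin receptor at the cell surface, was at 12.09, 12.16, 12.08 and 12.14 in a3a6KO 1 to 4, against 12.11, 12.11, 12.03 and 11.90 in control 1 to 4. The groups overlapped, and the difference was 0.08 (95% interval -0.24 to 0.40). It was 0.034 without control 4 and 0.10 without control 1 or without control 2. Rps6, the small subunit protein phosphorylated by S6 kinases downstream of mTORC1, was at 10.14, 10.28, 10.22 and 10.34 in a3a6KO, against 10.44, 10.44, 10.20 and 10.19 in control, a difference of -0.073. The difference was -0.032 without control 1 or without control 2, and -0.115 without control 4. Control 1 and 2 were above every a3a6KO array, and control 3 and 4 were among the lowest. Rpl5 and Rpl11, whose free proteins bind Mdm2 and so restrain the breakdown of p53, differed by 0.0025 and -0.018. Rpl5 was at 10.47, 10.42, 10.41 and 10.49 in a3a6KO, against 10.44, 10.53, 10.35 and 10.46 in control.

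The stalk of the large subunit, which recruits elongation factors, was represented by its base Rplp0 and by Rplp1. Rplp0 was at 9.16, 9.27, 9.25 and 9.12 in a3a6KO, against 8.86, 9.20, 9.25 and 9.03 in control, so control 1 stood lowest and the groups overlapped. The difference was 0.115, with 0.04 without control 1 and 0.17 without control 3. Rplp1 was at 12.46 to 12.51 in a3a6KO and 12.42 to 12.59 in control (difference -0.025). Rpl41, which encodes a very short basic peptide, differed by 0.0075. Rps4x, the X-linked small subunit gene, was at 9.47, 9.42, 9.59 and 9.57 in a3a6KO, against 9.58, 9.87, 9.53 and 9.52 in control, a difference of -0.11. Its difference was -0.031 without control 2 and -0.15 without control 4.

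A few members stood low on 1 array. On a3a6KO 2, Rps9, Rpl9 and Rpl8 lay more than 0.25 below the mean of the other a3a6KO arrays. Rps9, at the entry of the mRNA channel, was at 10.61, 10.18, 10.58 and 10.65 in a3a6KO 1 to 4, against 10.55, 10.58, 10.52 and 10.54 in control 1 to 4. Rpl9 was at 10.61, 10.27, 10.62 and 10.70 in a3a6KO, against 10.64, 10.69, 10.70 and 10.71 in control, and Rpl8 at 10.62, 10.27, 10.55 and 10.49, against 10.51, 10.62, 10.55 and 10.43. The difference of Rpl9 was -0.135 with all arrays, -0.042 without a3a6KO 2 and -0.185 without a3a6KO 4. On the same array the median member lay 0.005 above the mean of the other a3a6KO arrays. Itga6 was also lowest on a3a6KO 2, and its part in these 3 values was not tested.

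Across arrays made alike by quantiles, the mean of the whole family varied by hundredths of a log2 unit. Members make up much of the bright end, with 8 members and 5 other named genes at means of 12 to 13. At 11 to 12 there are 23 members and 32 other named genes. Normalization by quantiles may thus flatten a shift shared by the family, and how far it did so was not tested. The family score, the mean deviation of the 56 members from their own means over all arrays, was 0.0071, -0.00092, -0.020 and 0.060 in a3a6KO 1 to 4, against -0.025, 0.014, -0.0068 and -0.029 in control 1 to 4. It averaged 0.012 ± 0.034 in a3a6KO and -0.012 ± 0.020 in control (SD, n = 4 each), and the groups overlapped. The gap of 0.023 was not computed with other arrays left out, such as a3a6KO 3, the lowest a3a6KO array. It was 0.0070 without a3a6KO 4. That array held the highest of the 8 values for 16 of the 56 members and the lowest for 0, and control 1 the lowest for 15. The separation of exon from intron control sets, as the area under the curve, was 0.873 on a3a6KO 4 and 0.855 to 0.862 on the other a3a6KO arrays, against 0.852 on control 1 and 0.865 to 0.879 on the other control arrays, and its part in the score was not tested. The basal marker score varied over a range many times wider and was high on a3a6KO 3 and control 2 and 4, where the family score was -0.020, 0.014 and -0.029. The endothelial and fibroblast scores were high on a3a6KO 3 and control 4 as well, and their part in the family score was not tested.

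Within the small subunit the score was -0.0094, -0.015, -0.0076 and 0.072 in a3a6KO 1 to 4, against -0.013, 0.023, -0.020 and -0.030 in control 1 to 4. Within the large subunit it was 0.018, 0.0081, -0.028 and 0.053, against -0.033, 0.0087, 0.0019 and -0.029. Both subunits were thus highest on a3a6KO 4, and the small subunit's gap between groups of 0.02 was -0.0006 without it. Pairs of members were weakly correlated over the 8 arrays, with a median Pearson r of 0.14 over 1540 pairs of the 56 members, against 0.017 over pairs of the 128 other genes with a mean of at least 10. All pairs share the same arrays and their normalization. Members varied in how closely they followed the rest: r with the mean of the other 55 ran between -0.31 (Rps21) and 0.92 (Rpl14), with a median of 0.33. The 11 members above background with a tract at the start had a median difference of 0.035 and a median SD of 0.074, against 0.023 and 0.070 for the 33 others with a promoter sequence.

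**Figure D5:**
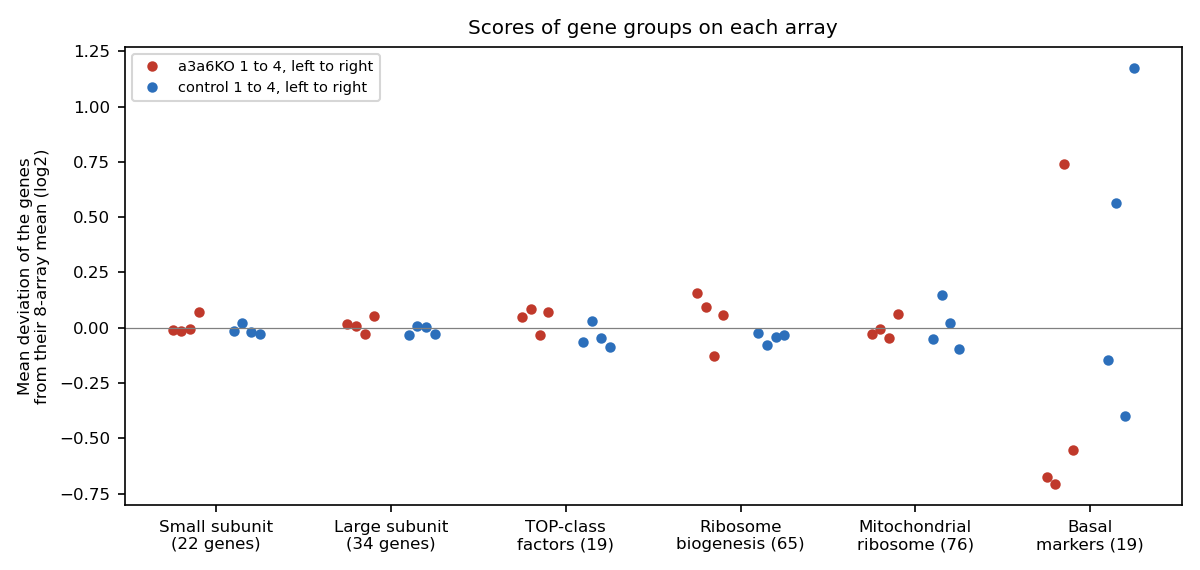
Mean deviation of the genes of each group from their own mean over 8 arrays (vertical axis, log2), for both ribosomal subunits and for 4 other gene lists, with a3a6KO 1 to 4 in red to the left of control 1 to 4 in blue. The scores of the subunits lie between -0.033 and 0.072 on every array, while the basal marker score runs between -0.71 and 1.18.

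Other genes of translation were read from lists written down beside the members. None of their 206 measured genes passed limma over all genes at an adjusted p under 0.05, and 9 had an unadjusted p under 0.05, 4 higher and 5 lower in a3a6KO (5.13% of all genes in either direction). Of 4 ribosomal proteins or relatives outside the naming pattern, Fau, whose product is a small subunit protein fused to a ubiquitin-like domain, was at 10.67, 10.57, 10.63 and 10.71 in a3a6KO 1 to 4, against 10.64, 10.76, 10.73 and 10.58 in control 1 to 4. Rpl22l1 differed by -0.038, Rps27rt by 0.005 and the dim Rpl7l1 by 0.135. Rpl31-ps12, the only measured symbol of that form, differed by 0.050.

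Of translation factors and other genes counted to the TOP class, 14 of 19 had a higher mean in a3a6KO, with a median of 0.075, against a median of -0.0025 over all genes. The 3 of smallest p were Eif2s3x, Pabpc1 and Nap1l1. Pabpc1, the cytoplasmic poly(A) binding protein, was at 11.69, 11.96, 11.69 and 11.64 in a3a6KO, against 11.44, 11.58, 11.51 and 11.44 in control, with no overlap and a difference of 0.25 (adjusted p = 0.946 in limma). Eif2s3x, a subunit of the factor that brings the initiator transfer RNA, differed by 0.42 and the histone chaperone gene Nap1l1 by 0.25, both with overlap. Of 28 other translation factors, 13 were above 0 and 15 below (median -0.032). Among them Eif4a1, the initiation helicase, was at 9.48, 9.15, 9.24 and 9.48 in a3a6KO, against 9.49, 9.84, 9.65 and 9.65 in control, with no overlap and a difference of -0.32. The termination factor gene Gspt1 differed by 0.44 and Eef1e1 by 0.46.

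Genes of ribosome assembly in the nucleolus and of RNA polymerase I were above 0 in 41 of 65, with a median of 0.078, and 23 of the 65 exceeded background on no array. Utp4, of the complex that processes small subunit RNA, was at 7.73, 7.93, 7.75 and 7.79 in a3a6KO, against 7.76, 7.10, 6.64 and 7.45 in control. Utp18 of the same complex differed by 0.50 below background, and Efl1, which helps release a late assembly factor from the large subunit, by -0.71. The list drawn up for TOP translation and mTORC1 had a median of 0.070 over 13 genes. On it Tia1 was at -0.52, Tsc1 at 0.42 and Zfp598 at -0.34, each above background on 1 array. Whether each listed gene acts on TOP translation or mTORC1 was not checked.

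The ribosomal proteins of mitochondria are nuclear-encoded and build a separate ribosome. Genes with symbols of this kind were less uniform than the cytosolic members. They were taken by symbol alone, and whether each product is part of that ribosome was not checked. Their 76 genes had a median within-group SD of 0.42, against 0.074 for the 61 cytosolic members, but 32 of them exceeded background on no array. The differences of the mitochondrial genes split evenly, 37 above 0 and 39 below. Mrpl17 was between 6.95 and 8.12 in a3a6KO, against 8.51, 8.27, 8.32 and 8.32 in control, with no overlap and a difference of -0.84. Mrps36 was at 6.91, 7.02, 7.05 and 7.28 in a3a6KO, against 6.23, 6.74, 6.42 and 6.35 in control, a difference of 0.63, above background on 2 control arrays and all 4 a3a6KO arrays. Mrpl36, below background throughout, differed by -0.57. All 3 had an adjusted p of 0.944 in limma.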

How the data were processed

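Gene expression was measured on 8 Affymetrix arrays, 1 per sample. Per the submitters' processing notes the authors' deposited log2 values come from RMA in Affymetrix Expression Console, which corrects background, makes the arrays alike by quantiles and summarizes probes, so that a shift common to most transcripts would be removed. Version and build, not given in the sources used here, stay unknown. Of 28846 probe sets, 19572 had 1 symbol in GEO's platform annotation, 0 several and 9274 none. Where several sets shared a symbol (55 genes, no member among them), the set of highest mean was kept, leaving 19505 genes.

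Groups came from the cell subtype label. All genes were fitted on group alone by lmFit and eBayes of limma 3.58.1 (R 4.3.3; two-sided, Benjamini-Hochberg over 19505 genes, threshold 0.05), after a test on simulated data. The labels do not say whether replicates were pooled animals. The number of arrays limits the precision. Background was the 95th percentile of 5222 intron control sets (names holding "neg"); 1324 exon sets gave the separation of exon from intron signal. Intervals are 95% intervals of the moderated fit. Replicate numbers are shared between groups, and same-numbered arrays did not deviate together (correlations of deviations from the group means of 0.032, 0.039, -0.053 and -0.061), so no block was used.

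Genes named are Itga3 and Itga6, the 5 members of smallest p in each direction, the 3 of largest and of smallest within-group SD, those above background on no array, Rpsa, Rplp0, Rplp1, Rps6, Rpl5, Rpl11 and Rpl41, members ending in l with their partners, members with an array that stood apart, and the 3 of smallest p in each related list. Rplp2 and Rps27a, also on that list, were not analysed here. Members and lists were chosen with earlier results of these data known. Alternatives are given at the end.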

Additional observations from a re-analysis of the deposited data

Results flagged for a closer look

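In 3 of the 122 groups of 4 arrays (61 genes, each in both groups), 1 array stood further from the others than Dixon's 95% limit of 0.829 for the gap over the range. Chance alone gives about 1 in 20 groups. Rps9 was low on a3a6KO 2 (10.18, against 10.58 to 10.65 on the other a3a6KO arrays), with a ratio of 0.851. Rpl35a was low on a3a6KO 1 (9.98, the others at 10.10, 10.11 and 10.11), with a ratio of 0.923. Rps20 was low on control 4 (11.65, the others at 11.79, 11.79 and 11.78), with a ratio of 0.929. Of 8 groups of scores, 2 held such an array. The small subunit score was high on a3a6KO 4 (0.072, against -0.015 to -0.0076 on the other a3a6KO arrays), with a ratio of 0.916, and the basal marker score was high on a3a6KO 3 (0.74, against -0.71 to -0.55), with a ratio of 0.894. Among 44 groups of other named genes there were 3. Pabpc1 was high on a3a6KO 2 (11.96), with a ratio of 0.844, Tia1 was high on control 3 (7.07), with a ratio of 0.987, and Tsc1 was high on control 4 (6.68), with a ratio of 0.89.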

How the results depend on the processing

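The count of ribosomal protein genes at an adjusted p under 0.05 was 0 in limma and in all its alternatives, as were the counts over all genes and over the 206 related genes. The alternatives were leaving out each array, the replicate block, centring on array medians, cyclic loess, an intensity trend with a robust prior, leaving out dim genes, averaging sets, the basal score or the exon and intron separation as covariate, array weights and, chosen after seeing the data, unmoderated variances. Counts of members without overlap under other settings were also added after seeing the data. At an unadjusted p under 0.05, limma counted 0 members (0 to 0 with an array left out, 0 with the replicate block). It counted 1 with the intensity trend (5.09% of all genes) and 8 with unmoderated variances (5.06%). The exact permutation test counted 7 (2.94%), which are the 7 members without overlap. The common SD of limma, 0.32, exceeded the own SD of all 56 members above background, so moderation widened their standard errors. Their median standard error was 0.0835 with the intensity trend and 0.05 with unmoderated variances. The 7 members without overlap were 6 after centring, 8 after cyclic loess and 7 to 10 with an array left out, where 3 arrays face 4 and 5.47% to 6.10% of all genes did not overlap. The median difference of 0.025 ran between 0.01 and 0.044 with an array left out and was 0.0525 after centring. The count of members below 0, 23 in the main analysis, ran between 20 and 29 with an array left out, highest without a3a6KO 4, and was 17 after centring. Of the 56 bright members, 55 or 56 had an interval inside 1.5-fold in every fit. The exception was Rpl6 under the replicate block and Rps27l in the others. Signs of Rpl5, Rpl11, Rpl41 and Rplp1, all near 0, changed under some settings. Only 4 arrays a group and quantile normalization limit what can be seen: a change shared by all transcripts would not show, and one shared by the brightest genes could be reduced.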
